A study of Mus musculus with 37 samples.

Results

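Cadherins were followed through the first steps of kidney formation with 8 genes: Cdh1, Cdh2, Cdh3, Cdh4, Cdh6, Cdh11, Cdh16 and Fat4. The genes were chosen by name as cell adhesion molecules of the mesenchyme, the nephron and the duct, and every probe set that the array annotation gives to 1 of them was taken. These were 15 of 45101 probe sets. All 8 genes were among the 15710 genes tested, and 14 of the 15 probe sets passed the filter on low signal. The study profiled 9 components of the developing kidney of wild-type, outbred CD-1 mice on 37 Affymetrix arrays. At embryonic day E11.5 there were 8 arrays of metanephric mesenchyme and 4 of ureteric bud, and at E12.5 there were 5 of renal vesicle. At E15.5 there were 4 arrays each of S-shaped body, renal corpuscle and medullary interstitium, 3 each of ureteric tip and medullary collecting duct, and 2 of proximal tubule. Each sample pooled about 50 sections from 5 kidneys, carried no mutation or treatment, and was amplified in 2 rounds before hybridization.

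The protocols name laser capture for these samples, whereas the titles of the ureteric bud and of 4 mesenchyme samples name dissection or collagenase. The embryos' sex and the number of litters are not stated. Replicates were treated as separate pools, which may share litters, and the p-values measure only the spread between them. A pool gives 1 level for all its cells, so fewer cells of a type and less RNA per cell cannot be told apart. Where the components compared are of different embryonic days, stage and structure cannot be told apart either.

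Classical cadherins hold neighbouring cells together by binding the same cadherin on the next cell, and their tails bind catenins that link to actin. In the kidney, loose mesenchyme around the branching ureteric bud condenses and turns into an epithelial vesicle, which bends into the S-shaped body and then patterns into podocytes and tubule segments. The textbook account of this step is a switch from mesenchymal to epithelial cadherins. Cdh1 (E-cadherin), Cdh2 (N-cadherin), Cdh3 (P-cadherin) and Cdh4 (R-cadherin) are type I classical cadherins, and Cdh6 (K-cadherin) and Cdh11 (OB-cadherin) are type II. Cdh16 (Ksp-cadherin) has a short tail that lacks the catenin-binding region, and Fat4 is a giant atypical cadherin that binds Dachsous, so neither is a classical cadherin.

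Levels are log2 values of the deposited signal after an offset and quantile normalization, and a difference of 1 on this scale is a doubling. A gene is said to have risen or fallen where limma gave a Benjamini-Hochberg adjusted p under 0.05 over all 15710 genes and a log2 difference of at least 1 in size. The pooled median of all values was 7.89. Levels are not compared between genes, because each probe set binds with its own strength.

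Over all arrays, 29 of 37 correlated best with another array of the same component. Some libraries stood apart. S-shaped body replicate 3 was nearest to renal corpuscle replicate 1, and the mean of its podocyte markers was 14.93, whereas corpuscle replicates 1 to 3 had 14.15 to 15.28. Its proximal tubule markers averaged 13.50 (9.65 to 10.20 in the others) and its interstitium markers 14.01 (10.75 to 11.08). Renal corpuscle replicate 4 was nearest to S-shaped body replicate 2, with podocyte markers at 10.70, under all other corpuscles, and S-shaped body markers at 12.83, against 8.73 to 9.81. Results that rest on these 2 arrays, called below the 2 arrays that stood apart, are given with and without them. Renal corpuscle replicate 2 was kept in those fits, although it was nearest to medullary interstitium replicate 2. Its nephron progenitor markers averaged 11.28, against 7.46 to 8.54 in the other corpuscles. It was the highest corpuscle array for Fat4 (13.06) and for Cdh2 (13.01). Six2 was at 13.34 in mesenchyme, Ret at 14.98 in bud, Ptpro at 15.27 in corpuscle and Cubn at 15.01 in proximal tubule. Each was the highest component mean of its gene. Other listed markers went the other way. Cited1 and Osr1 in mesenchyme had means of 7.43 and 7.70, under the pooled median. Foxd1, of the interstitium list, averaged 12.24 in medullary interstitium, against 13.57 in mesenchyme and 13.27 in corpuscle. Lhx1 and Pou3f3, of the S-shaped body list, averaged 10.74 and 14.12 in S-shaped body, against 12.28 and 14.66 in bud.

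All 8 genes differed among the 9 components by the moderated F test, where 49.9% of all genes did. By F value, Cdh4 ranked 64, Cdh16 84 and Cdh1 143 among 15710 genes. Cdh11 ranked 201, Cdh6 215 and Fat4 216, with Cdh3 at 1865 and Cdh2 at 2814. The component means of Cdh16 spanned 7.73 on the log2 scale, the widest of the 8, and those of Cdh3 spanned 3.53, the narrowest. Ordered by mean, neighbouring components mostly overlapped array by array: every neighbouring pair did so for Cdh1, Cdh6, Cdh16 and Fat4. The gaps were at the top for Cdh2 (mesenchyme over vesicle) and Cdh3 (bud over ureteric tip), and at the bottom for Cdh11 (bud under ureteric tip). Cdh4 had 2 gaps, with collecting duct 1.35 over mesenchyme in mid-order and proximal tubule 0.94 over bud near the bottom.

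**Figure D1:**
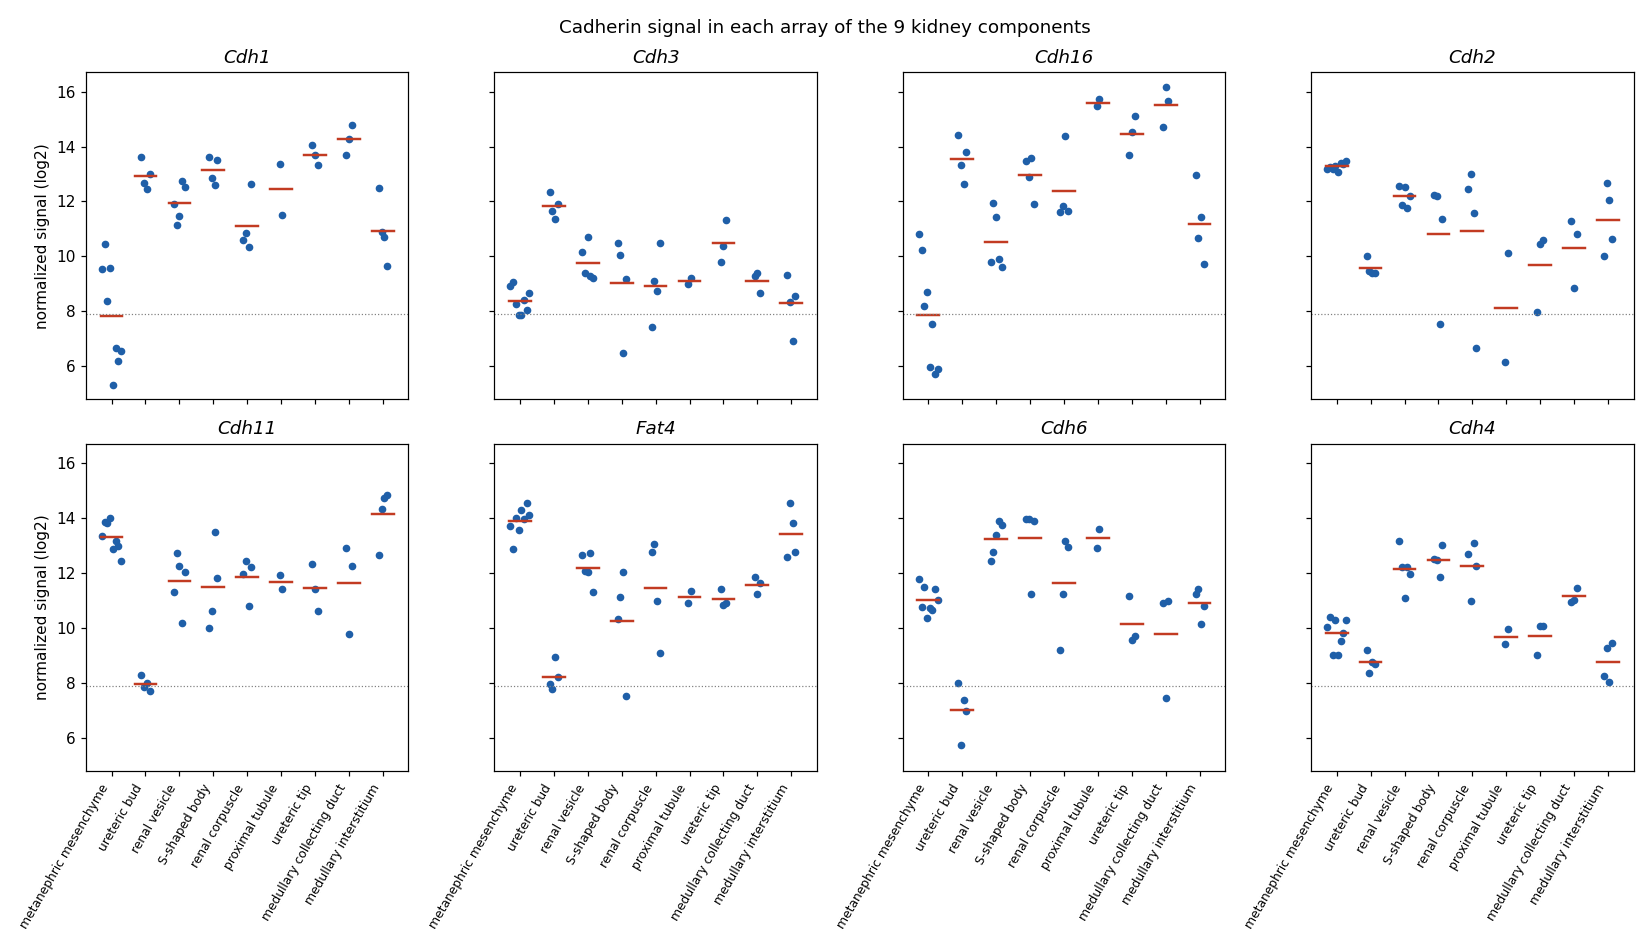
Normalized log2 signal of the probe set used for each of the 8 genes, by component from E11.5 to E15.5; points are arrays, bars are means and the dotted line is the pooled median of 7.89. Cdh1, Cdh3 and Cdh16 are high in ureteric bud, where Cdh11, Fat4 and Cdh6 are low, and Cdh4 is high in vesicle, S-shaped body and corpuscle.

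At E11.5 the ureteric bud, the epithelium that branches into the collecting system, was set against the metanephric mesenchyme that surrounds it. Of the 8 genes 7 were called, 3 higher and 4 lower, where 8.13% of all genes were called (4.07% higher and 4.05% lower). The arrays of the 2 components did not overlap for those 7, and 13.3% of all genes showed no overlap. Cdh1, Cdh3 and Cdh16, the epithelial cadherins, rose in bud, whereas Cdh2, Cdh6, Cdh11 and Fat4 fell and Cdh4 was not called.

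Cdh1, whose product seals the belt junctions of epithelia, measured 13.63, 12.68, 12.46 and 12.99 in the 4 bud arrays, against 5.33 at the lowest, 7.54 at the median and 10.45 at the highest in the 8 mesenchyme arrays. Every bud array lay above every mesenchyme array. The difference was 5.10 (SE 0.66, adjusted p = 9.47e-07). Cdh16, a marker of tubular epithelium in the kidney, measured 14.43, 13.32, 12.63 and 13.79 in bud, against 5.73, 7.85 and 10.81 (lowest, median, highest) in mesenchyme. It was 5.66 higher (SE 0.74, adjusted p = 9.73e-07). Cdh3, found in placenta and basal epithelia, measured 12.33, 11.65, 11.38 and 11.91 in bud, against 7.85, 8.34 and 9.07 in mesenchyme. It was 3.43 higher (SE 0.54, adjusted p = 2.26e-05). In the mouse gene annotation Cdh3 and Cdh1 are direct neighbours. The highest mean of Cdh3 was in the early bud at 11.82 ± 0.40 (SD, n = 4), whereas Cdh1 averaged 14.26 ± 0.55 (n = 3) in medullary collecting duct, its highest mean. Over the 37 arrays the Pearson correlation of Cdh1 and Cdh3 was 0.50.

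On the mesenchymal side, Cdh11, a cadherin of loose mesenchyme and bone-forming cells, measured 8.29, 7.86, 8.0 and 7.72 in bud, against 12.44, 13.28 and 14.02 in mesenchyme. The bud values lay near the pooled median of all signals. Cdh11 fell by 5.36 (SE 0.54, adjusted p = 8.21e-09). Fat4, which in the mouse kidney is known from the stroma, where it binds Dachsous on nephron progenitors, measured 7.98, 7.79, 8.95 and 8.21 in bud, against 12.87, 13.99 and 14.56 in mesenchyme. It fell by 5.66 (SE 0.58, adjusted p = 8.21e-09). Cdh2, the adhesion molecule of neural tissue, heart and many mesenchymal cells, measured 10.02, 9.46, 9.40 and 9.38 in bud, against 13.07, 13.29 and 13.49 in mesenchyme. The 8 mesenchyme arrays were tightly grouped (13.28 ± 0.13, SD) and the fall was 3.72 (SE 0.83, adjusted p = 0.00201). Cdh6, which marks the forming nephron, measured 7.99, 5.75, 7.40 and 7.0 in bud, against 10.38, 10.91 and 11.80 in mesenchyme. It fell by 4.01 (SE 0.62, adjusted p = 1.65e-05). Its other probe set differed by -1.18 with adjusted p = 0.0623, so the fall was called with 1 of its probe sets.

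Cdh4, studied mainly in retina and brain, averaged 8.76 ± 0.34 in bud (n = 4) and 9.81 ± 0.56 in mesenchyme (SD, n = 8), a difference of -1.06 with adjusted p = 0.0995 and overlapping arrays. A single date in the titles was shared by the 2 components, with bud replicate 3 and mesenchyme replicate 6. Within it the differences were 5.78 for Cdh1, 5.11 for Cdh16 and 2.98 for Cdh3, and -4.00 for Cdh2, -3.28 for Cdh6, -5.19 for Cdh11 and -5.03 for Fat4.

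**Figure D2:**
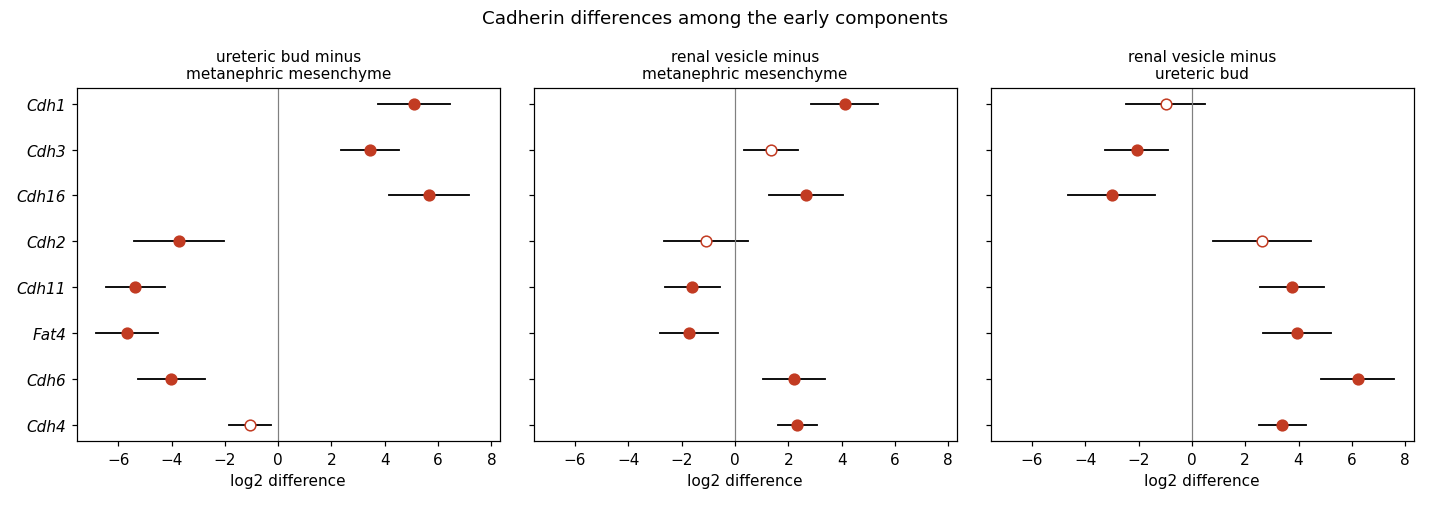
Log2 differences of the 8 genes among the early components, with 95% intervals from limma; filled points passed adjusted p under 0.05 and a log2 difference of 1, open points did not. Cdh1, Cdh3 and Cdh16 lie right of 0 and Cdh2, Cdh11, Fat4 and Cdh6 left of 0 for bud minus mesenchyme, whereas Cdh6 and Cdh4 lie right of 0 for vesicle minus mesenchyme.

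The mesenchyme arrays were not alike for Cdh1 and Cdh16. Cdh1 measured 5.33, 6.68, 6.18 and 6.57 in the 4 arrays titled dissection or collagenase (replicates 5 to 8), against 9.55, 8.39 and 9.56 in the 3 titled LCM and 10.45 in the 1 with no method in its title. Cdh16 measured 5.98, 7.52, 5.73 and 5.88 in the dissection or collagenase arrays, against 10.81, 8.19 and 8.69 in those titled LCM and 10.23 in the untitled one. For both genes the dissected arrays lay under the others, and the share of all genes split in this way was not counted. Cdh3, which also rose in bud, measured 7.85, 8.40, 8.05 and 8.65 in the dissection or collagenase arrays. It measured 8.93, 8.27 and 7.88 in those titled LCM and 9.07 in the untitled one, so it overlapped. The mean of 6 tested ureteric epithelium markers (Ret, Wnt11, Wnt9b, Calb1, Gata3, Emx2), of 7 listed, was 7.89 to 8.31 in the dissection or collagenase arrays and 9.59 to 11.13 in the other 4. The part of bud cells in the Cdh1 and Cdh16 levels of mesenchyme was not tested. With mesenchyme titled LCM alone the bud difference was 3.77 for Cdh1 and 4.31 for Cdh16, and with dissected mesenchyme alone it was 6.75 and 7.26. Both genes were called in each setting. Cdh2 fell by 3.76 in bud relative to dissected mesenchyme (adjusted p = 0.0181), and its difference from mesenchyme titled LCM was -3.66 (adjusted p = 0.0578).

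**Figure D3:**
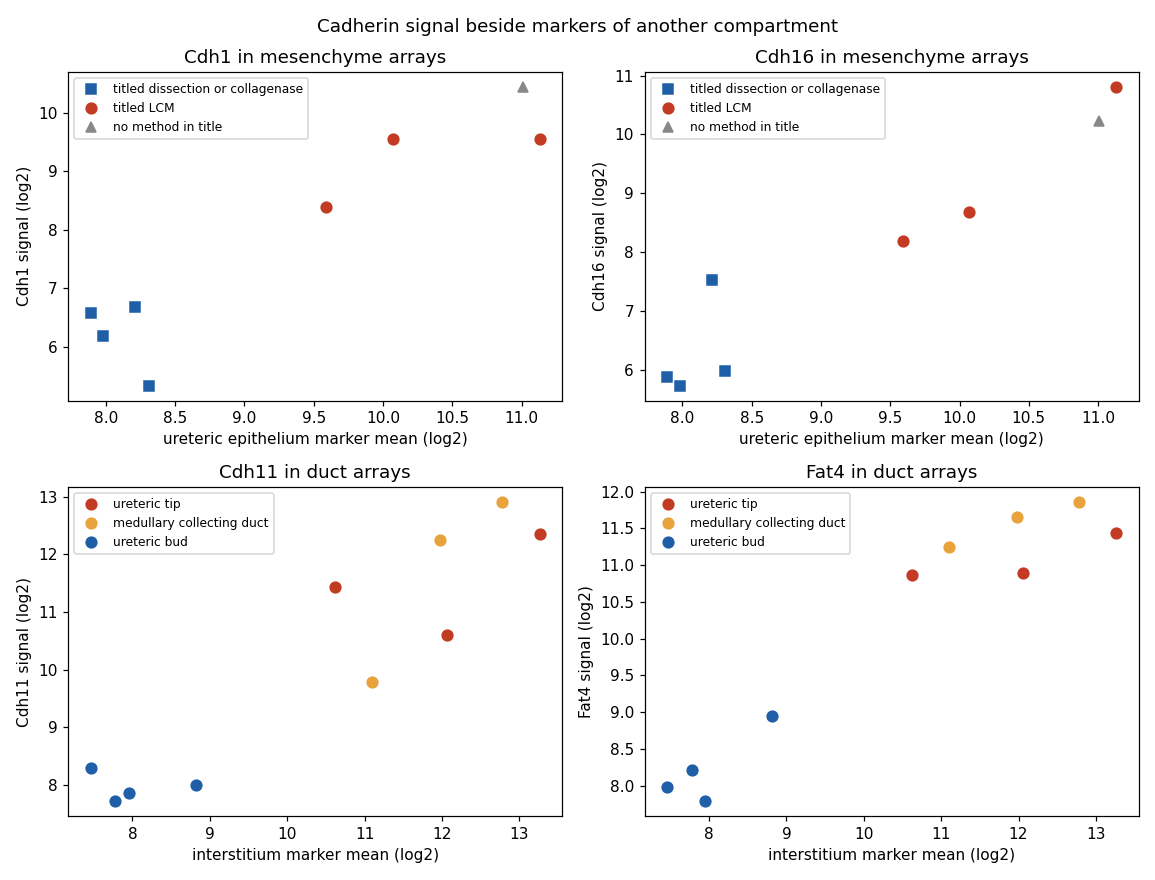
Top, Cdh1 and Cdh16 in the 8 mesenchyme arrays against the mean of ureteric epithelium markers, by the method in the title; bottom, Cdh11 and Fat4 in ureteric tip, medullary collecting duct and ureteric bud arrays against the mean of interstitium markers (all log2). The dissected mesenchyme arrays lie at 7.89 to 8.31 on the marker axis with Cdh1 under 7, and the bud arrays lie at 7.46 to 8.82 on the interstitium axis with Cdh11 under 9.

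The renal vesicle is the first epithelium that the mesenchyme forms. Against mesenchyme 6 of the 8 genes were called, 4 higher and 2 lower, where 11.8% of all genes were called (3.86% higher and 7.98% lower). For 6 genes the arrays did not overlap, against 6.45% of all genes. Cdh1, Cdh4, Cdh6 and Cdh16 rose and Cdh11 and Fat4 fell. This comparison and the one of the bud share the mesenchyme arrays.

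Cdh1 measured 11.90, 11.16, 11.46, 12.75 and 12.51 in the 5 vesicle arrays, above the highest mesenchyme array at 10.45. It was 4.12 higher (SE 0.62, adjusted p = 2.57e-05). Cdh4 measured 13.18, 12.24, 11.11, 12.24 and 11.99 in vesicle, against 9.01, 9.95 and 10.42 (lowest, median, highest) in mesenchyme. It was 2.34 higher (SE 0.36, adjusted p = 4.06e-05), and 3.97 higher with its second probe set. Cdh6 measured 12.45, 12.77, 13.40, 13.89 and 13.76 in vesicle, against at most 11.80 in mesenchyme, and was 2.21 higher (SE 0.57, adjusted p = 0.0079). Cdh16 measured 9.79, 11.93, 11.42, 9.91 and 9.62 in vesicle, which overlapped with mesenchyme at up to 10.81, and was 2.66 higher (SE 0.69, adjusted p = 0.00763). The ureteric epithelium markers were at 11.61 and 10.91 in the 2 vesicle arrays with the highest Cdh16, and at 9.06 to 9.65 in the other 3.

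By mean, Cdh11, Fat4 and Cdh2 lay between mesenchyme and bud in vesicle, whereas Cdh6 lay above both. Cdh11 measured 11.33, 12.73, 12.28, 10.18 and 12.06 in vesicle, against 12.44, 13.28 and 14.02 in mesenchyme, and fell by 1.61 (SE 0.51, adjusted p = 0.0281) with overlapping arrays. Fat4 measured 12.67, 12.08, 12.06, 12.74 and 11.33 in vesicle, against 12.87, 13.99 and 14.56 in mesenchyme, and fell by 1.72 (SE 0.54, adjusted p = 0.0269). The second probe sets gave -0.71 for Cdh11 (adjusted p = 0.406) and -0.05 for Fat4 (adjusted p = 0.963), so neither fall was called with both probe sets. Cdh2 measured 12.56, 11.87, 12.54, 11.76 and 12.19 in vesicle, every array under the lowest mesenchyme array at 13.07. Its difference of -1.10 had adjusted p = 0.37 in the fit over all components, whose spread includes the E15.5 arrays, and 0.00141 when only the arrays of vesicle and mesenchyme were fitted. The second Cdh2 probe set overlapped and differed by -1.26 (adjusted p = 0.159 in the fit over all components). Cdh3 averaged 9.74 ± 0.65 in vesicle (n = 5) and 8.39 ± 0.46 in mesenchyme (SD, n = 8), without overlap, with adjusted p = 0.0644. Its second probe set overlapped and differed by -0.01 (adjusted p = 0.994).

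Leaving out single arrays ended both falls in vesicle. Adjusted p was 0.0735 and 0.122 for Cdh11 without vesicle replicates 1 and 4, and 0.052 to 0.0783 for Fat4 without vesicle replicate 3 or 5 or mesenchyme replicate 7. Calls also rested on the mesenchyme arrays used. With mesenchyme titled LCM alone, 2 genes were called, Cdh1 and Cdh4. There Cdh6 was 2.03 higher (adjusted p = 0.174), Cdh16 1.31 higher (0.343), and Cdh11 and Fat4 differed by -2.02 (0.107) and -1.60 (0.252). With dissected mesenchyme alone 5 genes were called and Cdh11 was not (-1.16, adjusted p = 0.23). The rise of Cdh1 was 5.76 with dissected and 2.79 with LCM-titled mesenchyme, and Cdh16 was 4.26 higher with dissected mesenchyme.

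Vesicle and bud are both epithelia but differed in 6 of the 8 genes, 4 higher and 2 lower, where 11.1% of all genes were called (3.86% higher and 7.26% lower). For 7 genes the arrays did not overlap, against 18.8% of all genes. The bud arrays are of E11.5 with dissection or collagenase in their titles, and the vesicle arrays of E12.5 with no method there. Structure, stage and method therefore cannot be told apart in this comparison. With the probe sets used Cdh6 had the widest gap, 6.22 (SE 0.68, adjusted p = 5.75e-08), with the lowest vesicle array at 12.45 and the highest bud array at 7.99. Cdh4 was 3.39 higher in vesicle (adjusted p = 8.42e-07), Cdh11 3.75 higher (4.1e-05) and Fat4 3.94 higher (4.55e-05). With the second probe sets the order changed: Cdh4 was 4.59 higher, Fat4 4.34, Cdh11 3.54 and Cdh6 3.28, all called. Cdh3 fell by 2.07 (adjusted p = 0.0166, or 0.0615 without bud replicate 1) and Cdh16 by 3.01 (0.0108). Cdh2 did not overlap and was 2.62 higher with adjusted p = 0.0527, or 0.00199 without S-shaped body replicate 3 and renal corpuscle replicate 4. Neither array is of vesicle or bud, so leaving them out changed the shared spread and not the difference. Cdh1 averaged 11.96 ± 0.67 in vesicle (n = 5) and 12.94 ± 0.51 in bud (SD, n = 4), with a 95% interval of the difference of -2.46 to 0.49. The bud arrays had interstitium markers at 8.82 or less and the vesicle arrays at 9.46 or more, and their part in the higher Cdh11 and Fat4 was not tested.

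RefSeq promoters of build GRCm38.p6 were at hand for 2 of the 8 genes, Cdh6 and Fat4, which both fell in bud relative to mesenchyme and were both higher in vesicle than in bud. The 250 bases before each annotated start are shown, Cdh6 from chr15:13173676-13173925 on the minus strand and Fat4 from chr3:38886690-38886939 on the plus strand. Capitals mark the general E-box CANNTG, which Snail, Zeb and Twist factors can bind.
Cdh6: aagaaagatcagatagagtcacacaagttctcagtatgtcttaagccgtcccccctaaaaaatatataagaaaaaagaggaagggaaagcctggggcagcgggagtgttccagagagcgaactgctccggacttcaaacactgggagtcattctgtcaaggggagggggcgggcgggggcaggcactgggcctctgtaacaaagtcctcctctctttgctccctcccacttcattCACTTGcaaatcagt
Fat4: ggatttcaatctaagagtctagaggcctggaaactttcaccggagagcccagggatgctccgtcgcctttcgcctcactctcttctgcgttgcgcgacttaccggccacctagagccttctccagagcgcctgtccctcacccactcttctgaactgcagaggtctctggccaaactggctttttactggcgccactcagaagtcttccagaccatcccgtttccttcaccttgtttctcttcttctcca
The Cdh6 window held 1 general E-box and the Fat4 window 0, and 66.2% of 32851 promoter windows of this length held at least 1. Neither window held CAGGTG, the E-box known from the Cdh1 promoter, or GTTAAT, the core of the HNF1 motif, searched on both strands. CAGGTG was in 17.2% of all windows and GTTAAT in 6.43%. The general E-box was added after the sequences had been seen.

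From vesicle to S-shaped body, in which podocyte and tubule precursors first separate, 0 of the 8 genes were called, where 4.98% of all genes were. Of the 8, Cdh16 and Fat4 had an unadjusted p under 0.05. Cdh16 measured 13.46, 12.91, 13.57 and 11.91 in S-shaped body, against 9.79, 11.93, 11.42, 9.91 and 9.62 in vesicle, a difference of 2.43 (SE 0.81, adjusted p = 0.0718). Fat4 measured 10.33, 11.12, 12.03 and 7.54 in S-shaped body, against 11.33 to 12.74 in vesicle, a difference of -1.92 (SE 0.63, adjusted p = 0.0687). The highest of the 4 was replicate 3. Without S-shaped body replicate 3 and renal corpuscle replicate 4, Fat4 fell by 2.51 (SE 0.55, adjusted p = 0.00692), the 1 call in that setting, where 2.6% of all genes were called. Cdh16 was called without vesicle replicate 2 or mesenchyme replicate 1. The mesenchyme array is of neither component, so leaving it out changed only the shared spread.

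Cdh4 and Cdh6, which along with Cdh1 and Cdh16 rose in vesicle relative to mesenchyme, had means in S-shaped body close to those in vesicle. Cdh4 averaged 12.48 ± 0.47 in S-shaped body (n = 4) and 12.15 ± 0.74 in vesicle (SD, n = 5) (difference 0.33, adjusted p = 0.738). Cdh6 measured 13.96, 13.96, 11.25 and 13.91 in S-shaped body. Replicate 3, the array with high podocyte markers, was the low one. Cdh2 was also low there, at 7.53, against 12.22, 12.19 and 11.37 in the other S-shaped bodies, and so was Cdh3, at 6.49 against 9.17 to 10.49. Cdh11 was highest in that array, at 13.49, against 10.01 to 11.82.

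Renal corpuscle, which holds the podocytes and the capsule around the glomerular tuft, was set against S-shaped body. None of the 8 genes was called with the probe sets used, where 0.567% of all genes were. Among the 8, Cdh1 and Cdh6 had an unadjusted p under 0.05. Cdh1 measured 10.58, 10.85, 10.35 and 12.63 in corpuscle, against 13.61, 12.84, 12.59 and 13.50 in S-shaped body, a difference of -2.03 (SE 0.77, adjusted p = 0.222). The 1 overlapping corpuscle array was replicate 4, the one with high S-shaped body markers. Without the 2 arrays that stood apart Cdh1 differed by -2.72 (adjusted p = 0.0652), Cdh6 fell by 2.74 (adjusted p = 0.0287) and Fat4 was 2.62 higher (adjusted p = 0.0111), where 4.05% of all genes were called. For Fat4 the arrays left out were the highest S-shaped body (12.03) and the lowest corpuscle (9.08), so leaving them out widened the difference. With all arrays Fat4 differed by 1.23 (adjusted p = 0.437), and by 0.46 with its second probe set (adjusted p = 0.801), both with overlap.

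The 2 probe sets of Cdh6 gave different pictures of the corpuscle. The one used measured 9.19, 11.24, 13.19 and 12.96 in corpuscle, which overlapped with S-shaped body. The other measured 7.63, 7.46, 7.63 and 8.51 in corpuscle, against 11.21, 10.11, 10.24 and 10.47 in S-shaped body. With it the components did not overlap, S-shaped body replicate 3 lay among the others, and Cdh6 fell by 2.70 (SE 0.44, adjusted p = 0.00249). Cdh2 was split in the corpuscle as well. It measured 12.44, 13.01, 11.57 and 6.67 with the probe set used, and 11.15, 12.61, 7.41 and 8.13 with the other. Replicate 4 was low with both, and replicate 3 with 1 of them. Where in the transcript these probe sets lie was not analysed here.

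**Figure D4:**
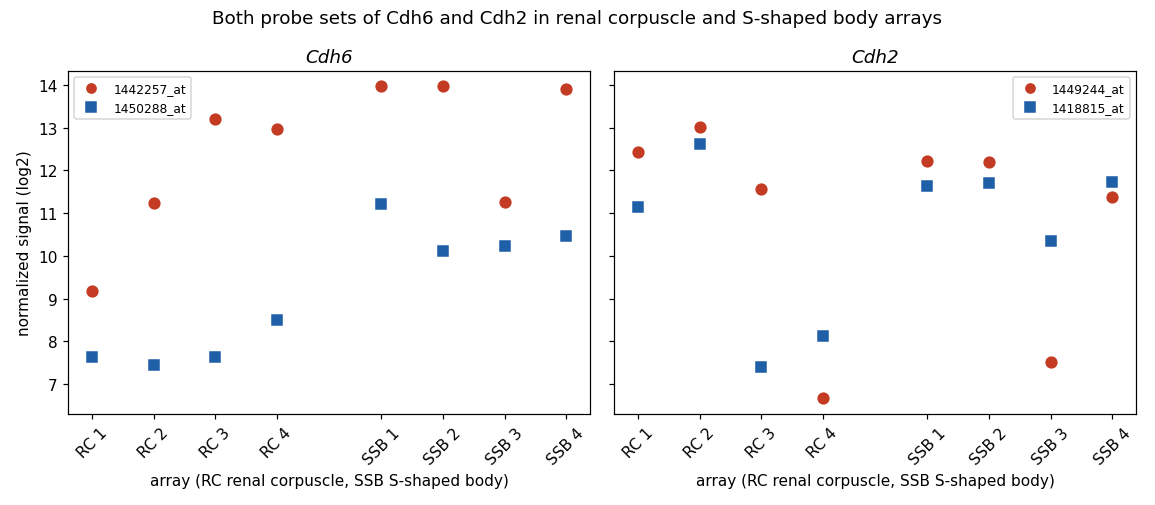
Normalized log2 signal of both probe sets of Cdh6 and Cdh2 in the 4 renal corpuscle (RC) and 4 S-shaped body (SSB) arrays. The second Cdh6 probe set lies at 7.46 to 8.51 in corpuscle and 10.11 to 11.21 in S-shaped body, whereas the one used ranges from 9.19 to 13.19 in corpuscle.

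Proximal tubule, labelled early proximal tubule and the first tubule segment after the corpuscle, was represented by 2 arrays. Against S-shaped body 1 of the 8 genes was called, a lower one, where 4.29% of all genes were called lower. Cdh4 measured 9.41 and 9.98 in proximal tubule, against 11.86 at the lowest and 13.02 at the highest of 4 S-shaped body arrays, and fell by 2.78 (SE 0.55, adjusted p = 8.66e-04). Cdh16 measured 15.49 and 15.72 in proximal tubule, above all S-shaped bodies (11.91 to 13.57), with a difference of 2.64 (SE 1.04, adjusted p = 0.102). For those 2 genes the arrays did not overlap, as for 26.1% of all genes.

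Cdh6, which adult kidney studies place in proximal tubule, measured 12.93 and 13.63 there, against 13.96, 13.96, 11.25 and 13.91 in S-shaped body, with an interval of the difference of -1.77 to 1.78. Cdh2 measured 6.14 and 10.12 in proximal tubule, a difference of -2.70 from S-shaped body (adjusted p = 0.14). It fell by 3.38 with its second probe set (adjusted p = 0.011), and by 3.80 (adjusted p = 0.00116) with the 2 arrays that stood apart left out. Proximal tubule replicate 2 was nearest to ureteric tip replicate 3 among all arrays, and its nephron progenitor markers averaged 10.82, against 8.28 in replicate 1.

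Podocyte-rich corpuscle and proximal tubule are 2 fates of the same S-shaped body. Against proximal tubule, 2 of the 8 genes were called in corpuscle, 1 higher and 1 lower, where 12.9% of all genes were (4.93% higher and 7.99% lower). For both the arrays did not overlap, as for 21.8% of all genes. Cdh4 averaged 12.28 ± 0.91 in corpuscle (SD, n = 4), every array above both proximal tubule arrays, and was 2.58 higher (SE 0.55, adjusted p = 0.00142). Cdh16 measured 11.63, 11.83, 14.38 and 11.64 in corpuscle and fell by 3.24 (SE 1.04, adjusted p = 0.0335). That call ended without corpuscle replicate 1, 2 or 4 (adjusted p = 0.0639 to 0.072) and without either proximal tubule array (0.123 and 0.134). With the second probe set Cdh6 fell by 2.96 in corpuscle (adjusted p = 1.93e-04), against -1.63 (adjusted p = 0.227) with the one used. Without the 2 arrays that stood apart, Cdh2 was 4.21 higher in corpuscle (adjusted p = 3.11e-04), and the call of Cdh16 ended (-2.99, adjusted p = 0.0645). With all arrays the second Cdh2 probe set differed by 1.85 (adjusted p = 0.173).

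At E15.5 the ureteric tip, the branching end of the duct, lies beside nephrons at the S-shaped stage. Against S-shaped body 2 of the 8 genes were called, both lower, where 0.789% of all genes were called lower. For 3 genes the arrays did not overlap, against 12.4% of all genes. Cdh4 measured 9.04, 10.07 and 10.08 in tip and fell by 2.75 (SE 0.49, adjusted p = 9.93e-04). Cdh6 measured 11.16, 9.58 and 9.73 in tip, all under the S-shaped bodies, and fell by 3.12 (SE 0.77, adjusted p = 0.0269), or by 3.79 (adjusted p = 0.00299) without the 2 arrays that stood apart. Adjusted p was 0.061 to 0.176 without tip replicate 2 or 3 or S-shaped body replicate 1, 2 or 4. Cdh1 averaged 13.69 ± 0.37 in tip (n = 3) and 13.14 ± 0.50 in S-shaped body (SD, n = 4), with an interval of -1.13 to 2.23. Cdh16, the other gene without overlap, lay at 13.69 to 15.12 in tip and 11.91 to 13.57 in S-shaped body, with adjusted p = 0.565.

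Against the E11.5 bud, the E15.5 tip had 3 of the 8 genes called, all higher, where 2.02% of all genes were called higher. For 4 genes the arrays did not overlap, against 33.8% of all genes. Cdh11 measured 12.35, 11.43 and 10.61 in tip, against 8.29, 7.86, 8.0 and 7.72 in bud, and was 3.49 higher (SE 0.68, adjusted p = 0.00156). Fat4 measured 11.44, 10.86 and 10.90 in tip, against 7.98, 7.79, 8.95 and 8.21 in bud, and was 2.84 higher (SE 0.72, adjusted p = 0.0161). Cdh6 was 3.12 higher (SE 0.77, adjusted p = 0.0133), and 1.05 higher with its second probe set (adjusted p = 0.19). Without tip replicate 1, Cdh11 alone was called, with adjusted p = 0.0897 for Fat4 and 0.114 for Cdh6, and Cdh6 had 0.0628 without bud replicate 2. Cdh4 differed by 0.97 (adjusted p = 0.281) with the probe set used, and was 1.80 higher without overlap with its second (adjusted p = 0.0206). This comparison and that of bud with mesenchyme share the 4 bud arrays. Interstitium markers (all 6 listed: Foxd1, Col3a1, Pdgfra, Col1a1, Dcn, Lum) averaged 13.26, 10.62 and 12.06 in the tip arrays, against 7.46, 7.95, 8.82 and 7.78 in bud. Snai2, a repressor found in mesenchyme, was also 3.60 higher in tip (adjusted p = 0.00955). Their part in the higher Cdh11, Fat4 and Cdh6 was not tested. The titles name dissection or collagenase for the bud and no method for the tip, so method and stage cannot be told apart. Cdh3 averaged 10.49 ± 0.78 in tip (n = 3) and 11.82 ± 0.40 in bud (SD, n = 4), without overlap, and its difference of -1.33 had adjusted p = 0.285.

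Between ureteric tip and medullary collecting duct, the ends of the same tree, 0 of the 8 genes were called, where 0.344% of all genes were. Cdh4 was the 1 gene of the 8 with an unadjusted p under 0.05. It measured 9.04, 10.07 and 10.08 in tip, against 10.96, 11.04 and 11.48 in collecting duct, without overlap (difference -1.44, SE 0.52, adjusted p = 0.436). Its second probe set differed by -0.46 with overlapping arrays (unadjusted p = 0.4). Cdh3 measured 9.78, 10.36 and 11.32 in tip, against 9.30, 9.38 and 8.65 in collecting duct, also without overlap (1.38, SE 0.72, adjusted p = 0.913). For those 2 genes no overlap stood beside 15.1% of all genes. On the 2 title dates that both components shared, Cdh4 differed by -1.42 and -0.96 and Cdh3 by 1.71 and 1.94. With arrays weighted by quality both genes were called, at adjusted p = 0.0206 and 0.0309, in a fit that called 1010 of all genes where the unweighted one called 54.

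The stroma of the medulla was compared with the early mesenchyme and with the duct it surrounds. Against mesenchyme 2 of the 8 genes were called in medullary interstitium, both higher, where 4.67% of all genes were called higher. They were 2 of the 3 genes that rose in bud, and the other, Cdh3, differed by -0.10 (adjusted p = 0.934). Cdh1 measured 12.48, 10.88, 10.70 and 9.65 in interstitium and was 3.09 higher (SE 0.66, adjusted p = 0.00158), and Cdh16 measured 12.97, 10.68, 11.42 and 9.71 and was 3.32 higher (SE 0.74, adjusted p = 0.00222). Both overlapped with mesenchyme. Ureteric epithelium markers averaged 12.40, 10.84, 8.73 and 8.96 in the same interstitium arrays, and replicate 1, which was highest for both cadherins, was nearest to ureteric tip replicate 3. With mesenchyme titled LCM alone the differences were 1.76 (adjusted p = 0.085) and 1.97 (adjusted p = 0.142), and neither was called.

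Cdh11 and Fat4 were high in medullary interstitium and in the early mesenchyme, where the median of the nephron progenitor marker means was 11.37, against 7.45 to 9.60 in the other components. Cdh11 measured 12.68, 14.34, 14.75 and 14.85 in interstitium, against 12.44, 13.28 and 14.02 in mesenchyme, with a difference of 0.83 (adjusted p = 0.335). With its second probe set it was 1.92 higher (SE 0.56, adjusted p = 0.0171). Fat4 measured 12.61, 14.57, 13.84 and 12.77 in interstitium and differed by -0.45, with an interval of -1.62 to 0.72. Cdh2 measured 10.00, 12.69, 12.05 and 10.62 in interstitium, all under the mesenchyme arrays (10.7% of all genes did not overlap), with a difference of -1.94 (SE 0.83, adjusted p = 0.116). That difference was called at adjusted p = 0.0113 once the 2 arrays that stood apart were left out. Neither is of interstitium or mesenchyme, so this changed the shared spread and not the difference. The second Cdh2 probe set differed by -0.42 (adjusted p = 0.721).

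Collecting duct against medullary interstitium had 4 of the 8 genes called, 3 higher and 1 lower, where 4.47% of all genes were called (2.46% higher and 2.01% lower). Cdh1 measured 13.71, 14.28 and 14.80 in duct and was 3.34 higher (SE 0.83, adjusted p = 0.013). Cdh16 measured 14.72, 16.18 and 15.67 in duct and was 4.33 higher (SE 0.92, adjusted p = 0.00369). Cdh4 measured 10.96, 11.04 and 11.48 in duct, against 8.27, 9.29, 8.03 and 9.45 in interstitium, and was 2.40 higher (SE 0.49, adjusted p = 0.00261). The duct arrays lay above every interstitium array for all 3 genes. With Fat4 below, 4 genes did not overlap, against 15.4% of all genes.

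Cdh11 measured 12.91, 9.78 and 12.25 in duct and fell by 2.51 (SE 0.68, adjusted p = 0.0234), with overlap. Interstitium markers averaged 12.78, 11.10 and 11.98 in the same duct arrays and 14.02 to 14.52 in interstitium, and their part in the fall was not tested. Without duct replicate 2, Cdh4 alone was called, with adjusted p = 0.381 for Cdh11 (-1.58), 0.0798 for Cdh1 and 0.0508 for Cdh16. Cdh1 had adjusted p = 0.0774 without duct replicate 3 and 0.066 without interstitium replicate 4, and Cdh11 had 0.0825 and 0.0882 without interstitium replicates 3 and 4. Fat4 was 11.86, 11.25 and 11.65 in duct, without overlap, with a difference of -1.86 (adjusted p = 0.158), and it fell by 2.54 with its second probe set (adjusted p = 0.0152). On the 1 title date shared by duct and interstitium the differences were 1.79 for Cdh1, 3.21 for Cdh16, 2.76 for Cdh4 and -2.90 for Cdh11. Over all comparisons, 14 called differences could be read on a shared title date, and 14 had the same direction there. For most of the 14 the arrays of the 2 components did not overlap, which fixed the direction on any date in advance. The count is therefore no test of a date effect.

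Genes that control or partner the cadherins were read from lists of known members. Of 9 repressors of epithelial cadherin, all tested, 6 fell in bud relative to mesenchyme and none rose, where 4.05% of all genes fell (median log2 difference -2.42, against 0.02 over all genes). Snai2 averaged 8.54 ± 0.80 in bud (n = 4) and 13.94 ± 0.40 in mesenchyme (SD, n = 8), a difference of -5.40 (SE 0.69, adjusted p = 6.58e-07). Zeb1 fell by 4.44 (adjusted p = 1.23e-04) and Twist2 by 3.26 (adjusted p = 0.00173). In vesicle 4 of the 9 fell and none rose relative to mesenchyme, where 7.98% of all genes fell, with Snai2 at 11.07 ± 2.16 in vesicle (SD, n = 5), a difference of -2.87 (SE 0.64, adjusted p = 0.00224). In medullary interstitium Zeb2 was 3.23 higher than in mesenchyme (adjusted p = 1.2e-04) and Twist1 fell by 2.50 (adjusted p = 0.0205).

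Of 10 activators of renal epithelium 7 were tested. In bud 4 rose and 1 fell, and in vesicle 3 rose and none fell, each relative to mesenchyme, where 4.07% and 3.86% of all genes rose (median differences 1.88 and 1.04, against 0.02 and -0.06 over all genes). The bud risers included Esrp1, an epithelial splicing regulator (6.16, adjusted p = 3.04e-04), Grhl2, which drives Cdh1 in surface epithelia (3.89, adjusted p = 2.78e-05), and Lhx1 (4.98, adjusted p = 0.00145). The 1 that fell in bud was Wnt4 (-3.46, adjusted p = 0.00121). The vesicle risers were Lhx1 (5.68, adjusted p = 1.89e-04), Wnt4, the signal that triggers epithelialization (3.54, adjusted p = 5.73e-04), and Pax8 (2.90, adjusted p = 1.06e-05). Grhl2 averaged 8.26 ± 1.51 in vesicle (n = 5) and 12.48 ± 0.24 in bud (SD, n = 4), although Cdh1 was high in both. It rose by 3.07 in S-shaped body relative to vesicle (adjusted p = 0.00537).

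Of 17 catenins and junction partners 16 were tested, and 4 rose and none fell in bud relative to mesenchyme, where 4.07% of all genes rose (median 0.68, against 0.02 over all genes), with Ctnnd2, a catenin of the p120 family, at 3.65 (SE 0.82, adjusted p = 0.00224). Ctnnd2 was also 5.60 higher in ureteric tip than in collecting duct (SE 1.10, adjusted p = 0.00921), where no cadherin of the 8 was called. Ctnnb1, which binds the tails of classical cadherins, averaged from 15.32 to 16.33 over the 9 components. In vesicle 1 of the 16 rose and 2 fell relative to mesenchyme, where 3.86% and 7.98% of all genes did, among them Ctnnd1, the p120 catenin, which fell by 1.57 (SE 0.37, adjusted p = 0.00345).

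Of 11 genes around Fat4 (Fat, Dachsous and planar polarity) 10 were tested, and 3 rose and none fell in vesicle relative to mesenchyme, where 3.86% of all genes rose (median 0.19, against -0.06 over all genes). They were Celsr1 (2.42, adjusted p = 2.37e-04), Fjx1 (2.01, adjusted p = 0.00207) and Vangl1 (1.05, adjusted p = 0.0293). Fjx1, the mouse relative of the fly kinase that tunes binding between Fat and Dachsous, was also 2.11 higher in bud (adjusted p = 0.00221), where Fat4 fell. Fat1, a related giant cadherin, averaged from 14.99 to 15.82 over the 9 components. Of 16 other cadherins 12 were tested, and 3 fell and none rose both in vesicle and in bud relative to mesenchyme, where 7.98% and 4.05% of all genes fell (median differences -0.47 and -1.13, against -0.06 and 0.02 over all genes). Those that fell in vesicle were Cdh10 (-2.51), Cdh9 (-1.93) and Cdh5 (-1.75). Cdh5, the cadherin of endothelium, was 2.42 higher in S-shaped body than in vesicle (SE 0.57, adjusted p = 0.00941).

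Across the 37 arrays, which share the normalization and the component means, the 8 genes fell into loose groups. Cdh1 and Cdh16 had a Pearson correlation of 0.86, and Cdh11 and Fat4 of 0.76. Cdh3 and Cdh11 had -0.79 and Cdh1 and Fat4 -0.69. Cdh4 and Cdh6 had 0.58. Among all genes tested, those most like Cdh1 were Spint2 (0.89), Cldn7 (0.89) and Pou3f3 (0.88), and those most like Cdh16 were Spint1 (0.89) and Golt1a (0.87). Pdgfra (0.89) and Meis1 (0.88) were most like Cdh11, and Meis1 (0.87) and Tgfbi (0.87) most like Fat4. For Cdh6 the closest gene was Prnp (0.82), for Cdh4 Ndnf (0.82), for Cdh3 Ptpn3 (0.80) and for Cdh2 Zfp334 (0.81).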

How the data were processed

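RNA of each sample was measured on 1 Affymetrix array. The deposited values are signal intensities on a linear scale, computed with the GCOS software per the submitters' processing notes. The 2% trimmed mean of every deposited array was 1500, and median signals ran from 127 to 334. The table holds no detection calls, and the genome build is not given in the sources used here.

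An offset of 34.6, their 20th percentile, was added to the intensities, values were put on the log2 scale and arrays were quantile normalized. Fold changes of low genes are understated by the offset. Probe sets above the pooled median of 7.89 in at least 2 arrays were kept, and the probe set of highest mean was used per gene. limma 3.58.1 in R 4.3.3 fitted 1 mean per component over all 37 arrays (28 residual degrees of freedom, moderated with intensity trend and robust prior), for 12 comparisons and an F test, with Benjamini-Hochberg adjustment over 15710 genes. Genes named beside the 8 were picked from those with the largest called differences of each list and the highest correlations. Ctnnb1 and Fat1 were named without a call. The genes and lists were chosen with earlier results of these data known. The fit was tested on simulated data. Marker means are averages of log2 values over a list. Figures were drawn with matplotlib 3.10.9. The alternatives were other offsets, scaling, filters and probe sets, array weights, date and number terms, subsets of mesenchyme, and leaving arrays out.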

Additional observations from a re-analysis of the deposited data

Results flagged for a closer look

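In 48 sets of 4 to 8 arrays (8 genes in 6 components), 3 held an array far from the others by Dixon's test, which flags about 1 set in 20 by chance. Cdh6 in S-shaped body replicate 3 was 11.25, against 13.91 to 13.96 in the other 3 arrays. With the second Cdh6 probe set that array measured 10.24, among the others at 10.11 to 11.21. Cdh16 in renal corpuscle replicate 3 was 14.38, against 11.63 to 11.83 in the others, and the proximal tubule markers of that array averaged 10.29, against 8.35 to 8.97. Cdh2 in ureteric bud replicate 1 was 10.02, against 9.38 to 9.46 in the others, a gap that leaves every bud array under every mesenchyme array.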

How the results depend on the processing

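The 43 differences of single genes that were followed (33 of them called) gave 623 values under other settings, of which 558 kept direction and call, 41 lost the call, 24 gained it and none reversed. The same held for 1555 of 1591 values with 1 array left out, and for 7 called differences in every setting. Under 75th percentile scaling the median of all genes shifted by 0.20 for proximal tubule minus S-shaped body and by 0.13 for corpuscle minus S-shaped body and tip minus bud. With it, the share of higher among all calls was 72.1% for proximal tubule minus S-shaped body (56.7% as reported), 35.3% for corpuscle minus S-shaped body (18%) and 43.9% for collecting duct minus interstitium (55%). Counts of called genes moved as follows, beside the reported count. For corpuscle minus proximal tubule (2) the count was 1 with the offset at the 10th percentile, and 0 under each of 3 changes: array weights, a fit restricted to the 2 components, and a fixed term for title date. For S-shaped body minus vesicle (0) it was 1 with the offset at the 40th percentile, with 75th percentile scaling, with array weights, with the replicate block and without S-shaped body 3 and corpuscle 4. For proximal tubule minus S-shaped body (1) it was 2 with the offset at the 40th percentile, with 75th percentile scaling, with the replicate block and without those 2 arrays, and 0 with the date term. For corpuscle minus S-shaped body (0) it was 2 without those 2 arrays. Array weights gave 5 for ureteric tip minus bud (3) and 2 for tip minus collecting duct (0). Tip minus S-shaped body (2) gave 1 in a fit restricted to the 2 components. Mesenchyme titled LCM alone gave 2 for vesicle minus mesenchyme (6) and 0 for interstitium minus mesenchyme (2). The date term gave 0 for bud minus mesenchyme (7), tip minus S-shaped body, tip minus bud (3) and collecting duct minus interstitium (4), and 1 for interstitium minus mesenchyme. That term rests on few arrays, since 12 of 37 carry no title date and bud and mesenchyme share a date in 1 pair. The replicate block from the title numbers gave 3 for vesicle minus mesenchyme. Deviations of same-numbered arrays had a mean correlation of 0.00 over 99 pairs, so the numbers are not known to pair samples. All 8 genes passed the F test in each setting that allowed it. With each array left out, the counts ran from 7 to 7 for bud minus mesenchyme, 5 to 7 for vesicle minus mesenchyme and vesicle minus bud, 0 to 1 for S-shaped body minus vesicle, 1 to 2 for proximal tubule minus S-shaped body, corpuscle minus proximal tubule and tip minus S-shaped body, 1 to 3 for tip minus bud, 2 to 3 for interstitium minus mesenchyme and 1 to 4 for collecting duct minus interstitium. They were 0 throughout for corpuscle minus S-shaped body and tip minus collecting duct. The cause of these moves was not tested. The number of arrays, 2 for proximal tubule and 3 or 4 for most components, and signals near the pooled median limit the precision.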
